A study of Mus musculus with 24 samples.

Results

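Immediate early genes are transcribed within minutes of a signal from existing transcription factors, without new protein synthesis, and most of their transcripts decay quickly. The 10 such genes described here are Fos, Fosb, Jun, Junb, Egr1, Egr2, Egr3, Ier2, Nr4a1 and Dusp1. They were taken by gene name from the table of 55487 annotated genes, where each of the 10 names occurs, and all 10 were among the 14535 genes that passed the filter on low counts. Fosb was chosen by its measured levels, as one of the largest falls from day 7 to day 10. Its levels on those days are therefore a description without a test, and the contrast of day 10 with day 7 is a description for all 10 genes.

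The cells were mouse dendritic cells grown from bone marrow with GM-CSF, a growth factor that drives dendritic cell development. RNA was sequenced from cultures at 4 ages, days 7 to 10, of animals labelled ARPC4 Flox/Flox CD11c-Cre -/-, called WT here, and ARPC4 Flox/Flox CD11c-Cre +/-, called KO. Both genotypes carried the floxed Arpc4 gene, which encodes a component of the Arp2/3 complex that starts branched actin filaments, and the Cre recombinase was driven by the promoter of the dendritic cell gene CD11c. The mice were males and females of 8 to 10 weeks. Each of the 8 groups held 3 libraries, labelled with mice 63, 65 and 66 in WT and 64, 67 and 68 in KO. Cells were replated on days 4 and 7, and suspension cells were used.

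Library totals ran from 19952047 to 31049798 counts. Arpc4 was lower in KO on each day without overlap between the genotypes, with log2 fold changes of -0.19, -0.19, -0.18 and -0.28 on days 7 to 10, and it passed the adjusted threshold on none of them. These counts cover the whole gene, and which exons were floxed is not given in the sources used here. In every group 1 library carried the Y-linked gene Ddx3y, at 56.5 to 83.9 CPM (counts relative to the scaled library total) against at most 0.136 in the others. That library was labelled 63 in WT on every day, but in KO it was 64 on days 7 and 9, 68 on day 8 and 67 on day 10, so a KO number did not stay with 1 animal. Summed macrophage markers went from 5181 to 5604 CPM on day 7 to 3491 to 3582 on day 10 in WT, while summed dendritic cell markers went from 2397 to 2994 up to 5335 to 7157. In KO the macrophage sums were 4908 to 6210 on day 7 and 3220 to 4639 on day 10, and the dendritic cell sums 2689 to 3329 and 4788 to 8140. Some markers moved against their sum. Macrophage Mrc1 had day 7 and day 10 means of 348 and 543 CPM in WT and 427 and 603 in KO, and Cd163 0.133 and 0.167 in WT. Dendritic cell Batf3 had means of 9.63 and 5.18 in WT and 8.70 and 6.90 in KO, and Flt3 2.99 and 1.87 in KO. Neutrophil marker sums were higher on day 10 than on day 7 in WT, without overlap. They were 1780 to 3476 and then 4079 to 5965 CPM. In KO they overlapped, at 2380 to 6025 and 2897 to 4838. The neutrophil markers did not all move with their sum in WT. Csf3r had day 7 and day 10 means of 111 and 48.3 CPM, and Retnlg of 30.1 and 8.79. The Cxcr2 mean was also lower on day 10, and the other neutrophil markers had higher WT means on day 10. Mast cell and basophil markers had median sums of 42.7, 84.9, 79.5 and 56.4 CPM on days 7 to 10 in WT, and of 66.5, 115, 112 and 62.8 in KO. Fibroblast and stroma markers had median sums of 36.4, 23.4, 8.47 and 7.80 CPM in WT, and of 13.2, 6.54, 6.14 and 4.81 in KO. The part of these marker shifts in the results was not tested. Lymphocyte markers summed to at most 11.4 CPM and erythroid markers to at most 1.03. In bulk RNA, fewer cells of a type and less RNA per cell cannot be told apart.

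Fos, Fosb, Jun and Junb encode subunits of AP-1, a dimeric transcription factor that pairs a Fos protein with a Jun protein or Jun proteins with each other. Egr1, Egr2 and Egr3 encode zinc-finger transcription factors induced through ERK signalling, and Nr4a1 encodes an orphan nuclear receptor. Dusp1 encodes a phosphatase that switches off MAP kinases, and Ier2 encodes a small nuclear protein. Many of these genes are driven by serum response factor at CArG boxes and by CREB at cAMP response elements (CRE), and in myeloid cells they respond to adhesion, growth factors and microbial products.

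The sequence upstream of the start site is shown for the 4 genes that were lower by day 8 in both genotypes, Fosb, Fos, Nr4a1 and Dusp1, and for Jun, whose day 10 level was closest to its day 7 level in WT. The sequences are from RefSeq on GRCm38.p6. Capitals mark TGACG, the core of the CRE, read on either strand, so that CGTCA is its reverse complement. The window ends at the start site, less 6 bases in Fosb and 47 in Dusp1 that were left off.
Fosb, chr7:19310052-19310295, minus strand: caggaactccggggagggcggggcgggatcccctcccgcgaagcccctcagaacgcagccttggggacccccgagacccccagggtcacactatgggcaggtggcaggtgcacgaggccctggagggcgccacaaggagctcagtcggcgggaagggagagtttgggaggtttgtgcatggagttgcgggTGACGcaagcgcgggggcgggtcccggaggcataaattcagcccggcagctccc
Fos, chr12:85473640-85473889, plus strand: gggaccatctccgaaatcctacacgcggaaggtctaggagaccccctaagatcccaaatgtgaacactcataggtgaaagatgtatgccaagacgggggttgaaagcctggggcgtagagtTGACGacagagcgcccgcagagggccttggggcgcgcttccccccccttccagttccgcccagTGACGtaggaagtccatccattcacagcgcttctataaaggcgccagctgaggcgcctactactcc
Nr4a1, chr15:101266596-101266845, plus strand: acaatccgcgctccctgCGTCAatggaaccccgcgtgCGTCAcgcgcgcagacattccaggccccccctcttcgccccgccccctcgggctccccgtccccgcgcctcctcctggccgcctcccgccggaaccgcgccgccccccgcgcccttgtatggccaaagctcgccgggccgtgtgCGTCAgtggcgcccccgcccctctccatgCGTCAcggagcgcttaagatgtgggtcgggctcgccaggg
Dusp1, chr17:26508520-26508722, minus strand: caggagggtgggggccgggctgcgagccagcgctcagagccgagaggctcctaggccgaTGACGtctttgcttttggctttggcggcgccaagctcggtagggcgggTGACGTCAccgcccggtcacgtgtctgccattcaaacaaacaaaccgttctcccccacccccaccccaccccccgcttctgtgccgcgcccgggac
Jun, chr4:95052223-95052472, minus strand: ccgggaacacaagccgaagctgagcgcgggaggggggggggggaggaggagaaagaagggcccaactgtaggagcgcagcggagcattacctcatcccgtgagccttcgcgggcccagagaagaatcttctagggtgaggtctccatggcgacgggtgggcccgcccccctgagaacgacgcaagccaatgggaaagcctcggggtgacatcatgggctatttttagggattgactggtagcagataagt

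RefSeq windows were searched for 7 of the 10 genes, and not for Egr1, Egr3 and Ier2. Any entry of the 10 genes on chromosome 18, where Egr1 lies, was left out, so the counts below do not cover it. Egr2 had 5 start sites and so 5 windows, and the other 6 genes had 1 each. TGACG stood in at least 1 upstream window of 6 of the 7 genes, all but Jun, and of 19.8% of 27025 genes searched the same way with windows of 250 bases. In Egr2 it was in 3 of the 5 windows. The Nr4a1 window held 4 matches, Dusp1 3 (of which 2 overlap in the palindrome), Fos 2 and Fosb 1. The full CRE palindrome, TGACGTCA, was found in the Dusp1 window and in none of the other 6 genes, against 1.77% of all genes. An EGR site, GCGNGGGCG, was found in 2 of the 7, Fosb and Nr4a1, against 5.33%, and a TATA box, TATAAA, in Fos, against 14.3%. The CArG box was found in Egr2, in 4 of its 5 windows, against 1.62% of all genes, and the AP-1 site, TGANTCA, in none of the 7, against 7.82%. All motifs were searched on both strands. A match is a description of these letters in this window, and no match says nothing about the factor.

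**Figure D1:**
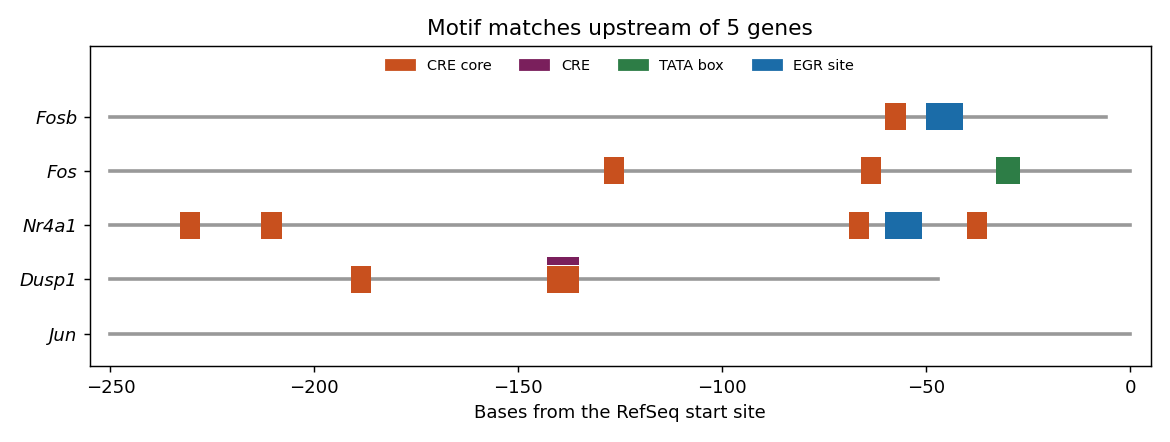
Motif matches upstream of 5 genes, by distance in bases from the RefSeq start site (horizontal axis), with each grey line the window searched. The CRE core stands 4 times in Nr4a1 and not at all in Jun, and the full CRE, drawn above the line, stands in Dusp1.

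Fosb is a Fos-family subunit with a long-lived splice form known from brain, and its gene lies at chr7:19302696-19310051 on the minus strand (GRCm38, GENCODE M21). In WT its level was 45.8, 28.5 and 46.2 CPM on day 7 (mice 63, 65 and 66), and the later days gave 5.59, 2.34 and 4.07 (day 8), 6.85, 2.14 and 4.23 (day 9) and 1.10, 1.69 and 1.62 (day 10). In KO it was 28.1, 36.2 and 36.6 CPM on day 7 (libraries 64, 67 and 68), and the later days gave 12.8, 10.2 and 8.16 (day 8), 24.9, 13.3 and 7.51 (day 9) and 9.22, 4.67 and 3.72 (day 10). The genotypes overlapped on day 7 and did not overlap on days 8, 9 and 10, when every KO library was above every WT library. WT Fosb stood at 9.95% of its day 7 mean on day 8 and at 3.66% on day 10, while KO Fosb stood at 30.8% and 17.5%.

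On the days that the choice of Fosb did not use, KO was higher than WT by log2 fold changes of 1.37 ± 0.43 (SE, day 8) and 1.79 ± 0.43 (day 9), 2.58-fold and 3.46-fold. The edgeR p-values were 0.00444 and 0.00046, and after adjustment over all genes 0.593 and 0.212, so neither passed the threshold of 0.05. On day 9 the value fell to 1.25 without KO library 64, which held the highest KO level. The DESeq2 Wald test passed Fosb on day 9 with an adjusted p of 0.0321, and edgeR without the filter on low counts with 0.00461. On day 8 the adjusted p ranged from 0.0871 to 1.00 over the 17 alternatives. The values on days 7 and 10, -0.26 and 2.00 on the log2 scale, are given without a test. From day 8 to day 9 Fosb moved by 0.13 ± 0.45 in WT and 0.55 ± 0.40 in KO, with adjusted p-values of 0.902 and 0.489 in edgeR.

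Fos, the archetypal AP-1 subunit, was far more abundant than Fosb per length, at 285 ± 42.3 TPM (counts per length, scaled per library; SD, n = 3) against 17.05 ± 4.15 in WT on day 7. Its WT levels were 272, 207 and 279 CPM on day 7, and the later days gave 106, 87.6 and 94.0 (day 8), 96.6, 88.3 and 92.5 (day 9) and 46.4, 49.1 and 38.8 (day 10). In KO they were 209, 271 and 296 CPM, then 125, 163 and 181, then 248, 92.4 and 97.9, then 91.5, 89.3 and 69.0. All KO libraries were above all WT libraries on days 8 and 10. On day 9 library 64 alone, at 248 CPM, stood outside the WT range by a wide margin. The log2 fold change of KO over WT was 0.71, 0.66 and 0.90 on days 8, 9 and 10, each ± 0.26, with adjusted p-values of 0.706, 0.464 and 0.347. Leaving out the libraries labelled 64 moved the day 9 value to 0.04 and brought Fos past the threshold on day 8 (0.85, adjusted p = 0.0296) and day 10 (0.84, adjusted p = 0.0331).

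Jun and Junb encode the partners of Fos proteins. Jun lay between 108 and 164 CPM in all 12 WT libraries and between 123 and 198 in all 12 KO libraries, and the genotypes overlapped on each day. Its KO over WT log2 fold changes ran from 0.06 to 0.15 with an SE of 0.13. Junb, which competes with Jun in AP-1 dimers, was 273, 225 and 298 CPM in WT on day 7 and 148, 144 and 170 on day 10, and 229, 283 and 317 and then 201, 163 and 194 in KO. Its genotypes overlapped on each day, with KO over WT values of 0.06, 0.31, 0.34 and 0.27 on days 7 to 10 (SE 0.15, adjusted p-values of 0.547 to 0.886).
Exons of Jun share 7.28% of their bases with Junos on the opposite strand, and exons of Junb share 7.52% with Prdx2. Whether the counting used strand is not given in the sources used here, so reads in these stretches cannot be told apart.

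**Figure D2:**
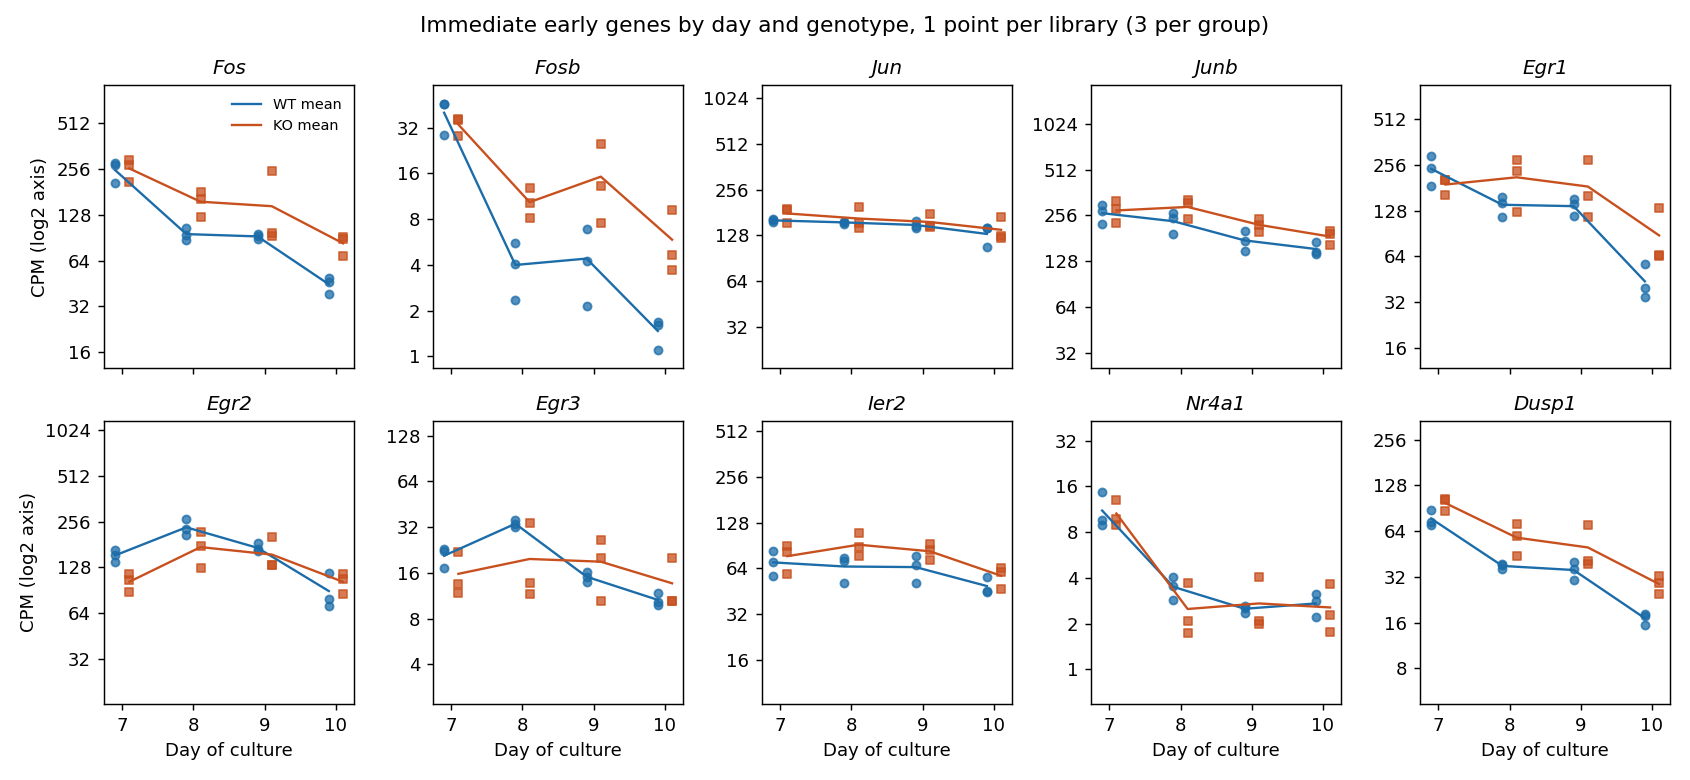
CPM of the 10 genes (vertical axis, log2 scale, the same number of doublings in each panel) against the day of culture (horizontal axis), with 1 point per library, circles for WT, squares for KO and lines through the group means. Fosb shows the widest range, from 1.10 to 46.2 CPM in WT, and Jun one of the narrowest.

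Egr1 was 246, 186 and 292 CPM in WT on day 7, and the later days gave 159, 117 and 145 (day 8), 153, 118 and 141 (day 9) and 39.9, 57.2 and 34.6 (day 10). In KO it was 163, 205 and 204 CPM, then 125, 278 and 235, then 276, 161 and 117, then 134, 64.9 and 65.2. The order of the genotypes was not the same on days 7 and 10: the mean was lower in KO on day 7, with overlap, and higher on day 10, without overlap. The log2 fold change of KO over WT was -0.34, 0.60, 0.43 and 1.01 on days 7 to 10, each ± 0.32, with an adjusted p of 0.393 on day 10. Without KO library 64 of day 10 that value was 0.58. The day 9 value leaned on KO library 64, at 276 CPM. The other KO libraries of day 9, at 161 and 117 CPM, lay on both sides of the WT mean of 137. The day 8 value ran from 0.37 without the libraries labelled 67 to 0.88 without those labelled 64.

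Egr2 and Egr3, the close relatives of Egr1, peaked on day 8 in WT. Egr2 was 139, 155 and 166 CPM in WT on day 7, and the later days gave 229, 210 and 265 (day 8), 168, 163 and 185 (day 9) and 71.7, 117 and 79.2 (day 10). In KO it was 115, 87.6 and 106 on day 7, and the later days gave 127, 217 and 177 (day 8), 202, 132 and 132 (day 9) and 115, 108 and 85.5 (day 10). On day 7 all KO libraries were below all WT libraries, by a log2 fold change of -0.58 ± 0.20 with an unadjusted p of 0.00885 and an adjusted p of 0.154. In a fit of the day 7 libraries alone, with fewer samples to estimate the spread, Egr2 passed with an adjusted p of 0.037. In the fit of all groups Egr2 was the one gene of the 10 that was higher on day 8 than on day 7 past the threshold, by 0.61 in WT and 0.76 in KO on the log2 scale, a contrast given as a description because it shares its day 7 libraries with the choice of Fosb. Egr3 in WT, at 0.70 with an adjusted p of 0.111, also passed in 6 of 17 alternative fits. These were without the filter, without library 64 or 67, with the compared groups alone, in limma on TPM and with an exchanged replicate block. In that block KO numbers were exchanged so that Ddx3y stayed with 1 number. Ddx3y does not settle which numbers the other KO libraries take.

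Egr3 was 33.6, 32.0 and 35.5 CPM in WT on day 8 and 14.03, 15.03 and 16.2 on day 9, a narrow spread within each day and no overlap between them. The log2 fold change from day 8 to day 9 was -1.16 ± 0.35, with an adjusted p of 0.0587 in edgeR. It passed with mouse number as a replicate block (adjusted p = 0.0376) and without the KO libraries labelled 64, 67 or 68, which enter only through the shared spread, and it had adjusted p-values of 0.292 to 0.314 without 1 WT mouse. In KO, Egr3 was 11.6, 33.99 and 13.7 CPM on day 8 and 26.4, 20.0 and 10.4 on day 9. Those ranges overlapped, and the change was -0.06 ± 0.35. Library 67 alone reached the WT level on day 8.

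Nr4a1 was the least abundant of the 10 per length in 5 of the 8 groups, Fosb taking that place in WT on days 8, 9 and 10. It was 9.59, 8.94 and 14.8 CPM in WT on day 7 and 4.05, 2.87 and 3.55 on day 8, and 8.94, 13.1 and 9.81 and then 1.73, 3.69 and 2.07 in KO. From day 8 to day 10 its 18 libraries lay between 1.73 and 4.08 CPM in both genotypes. Its genotypes overlapped on each day, with KO over WT log2 fold changes from -0.48 to 0.11 and an SE of 0.29 to 0.33. The day 10 mean was 24.5% of the day 7 mean in WT and 24.1% in KO. The test of the genotype difference in that change gave -0.02 ± 0.43 for Nr4a1, with a 95% interval from -0.91 to 0.87.

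Dusp1, the phosphatase, was 73.5, 70.0 and 88.7 CPM in WT on day 7, and the later days gave 36.2, 38.2 and 38.9 (day 8), 35.9, 30.4 and 40.2 (day 9) and 15.3, 18.3 and 17.6 (day 10). In KO it was 87.2, 103 and 103 CPM, then 43.9, 59.3 and 70.8, then 70.6, 40.5 and 38.8, then 32.4, 29.1 and 24.5. Its mean was higher in KO on all 4 days, without overlap on days 8 and 10. The log2 fold changes were 0.34 ± 0.19, 0.62 ± 0.19, 0.49 ± 0.19 and 0.75 ± 0.20, with adjusted p-values of 0.390, 0.581, 0.451 and 0.285. Leaving out the libraries labelled 64 gave 0.79 and an adjusted p of 0.0296 on day 8 and moved day 9 to 0.16. The DESeq2 Wald test passed Dusp1 on day 10 with an adjusted p of 0.0473. Exons of Dusp1 share 0.332% of their bases with Ergic1 on the opposite strand.

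Ier2 lay between 44.9 and 82.6 CPM in WT and between 46.6 and 109 in KO over the 4 days. On day 8 it was 71.6, 51.1 and 74.5 CPM in WT and 76.7, 109 and 88.9 in KO, without overlap and with a log2 fold change of 0.48 ± 0.19 (adjusted p = 0.736). On the other days the genotypes overlapped.

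Over the 10 genes, the genotype comparison called 0 by edgeR on each of the 4 days at an adjusted p of 0.05, where 1.45%, 0.00688%, 0.00688% and 0.0138% of the 14535 genes were called on days 7, 8, 9 and 10. At an unadjusted p of 0.05, with Fosb on days 7 and 10 included as a description, 0 genes were higher and 1 lower on day 7, against 8.02% and 7.66% of all genes. On day 8, 5 were higher and 2 lower, against 3.38% and 2.52%. On each of days 9 and 10, 4 were higher, against 4.59% and 3.74%, and 0 lower, against 3.56% on both days. Without Fosb, 3 of 9 were higher on day 10. Every KO library exceeded every WT library in 0 genes on day 7, in 4 on day 8 (Fosb, Fos, Dusp1 and Ier2), in 1 on day 9 (Fosb) and in 4 on day 10 (Fosb, Fos, Dusp1 and Egr1). With Fosb left out, 3 of 9 genes showed this pattern on day 10. The background for that pattern was 11.9%, 4.4%, 7.62% and 5.47%. Egr2 on day 7 was the 1 gene with every KO library below every WT library, a pattern that 14.2% of all genes showed that day.
The median log2 fold change of KO over WT was -0.02, 0.39, 0.34 and 0.32 on days 7 to 10, and that of all genes was -0.01, 0.00, 0.00 and 0.00. Day by day, 5, 7, 9 and 9 of the 10 were above 0. The medians of days 9 and 10 include the KO library labelled 64, the highest of its group in 9 of the 10 genes on both days. By Ddx3y that label was not 1 animal on these days. On day 9 the other KO libraries both lay above the WT mean in Fosb, Junb, Ier2 and Dusp1. They lay on both sides of it in Fos, Egr1 and Egr3, and below it in Jun, Egr2 and Nr4a1. On day 10 the others both lay above it in Fosb, Fos, Junb, Egr1 and Dusp1. They lay on both sides of it in Jun, Egr2 and Ier2, and below it in Egr3 and Nr4a1. The 2 genes that were lower on day 8 at an unadjusted p of 0.05 were Egr2 and Egr3, at -0.43 ± 0.20 and -0.77 ± 0.35. Without the libraries labelled 67 they were at -0.61 and -1.40, and without those labelled 64 at -0.25 and -0.49. DESeq2 called 0 of the 10 on days 7 and 8, Fosb on day 9, and Dusp1 on day 10 beside the untested Fosb, where it called 3.6%, 0.117%, 0.619% and 0.296% of all genes on days 7 to 10.

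**Figure D3:**
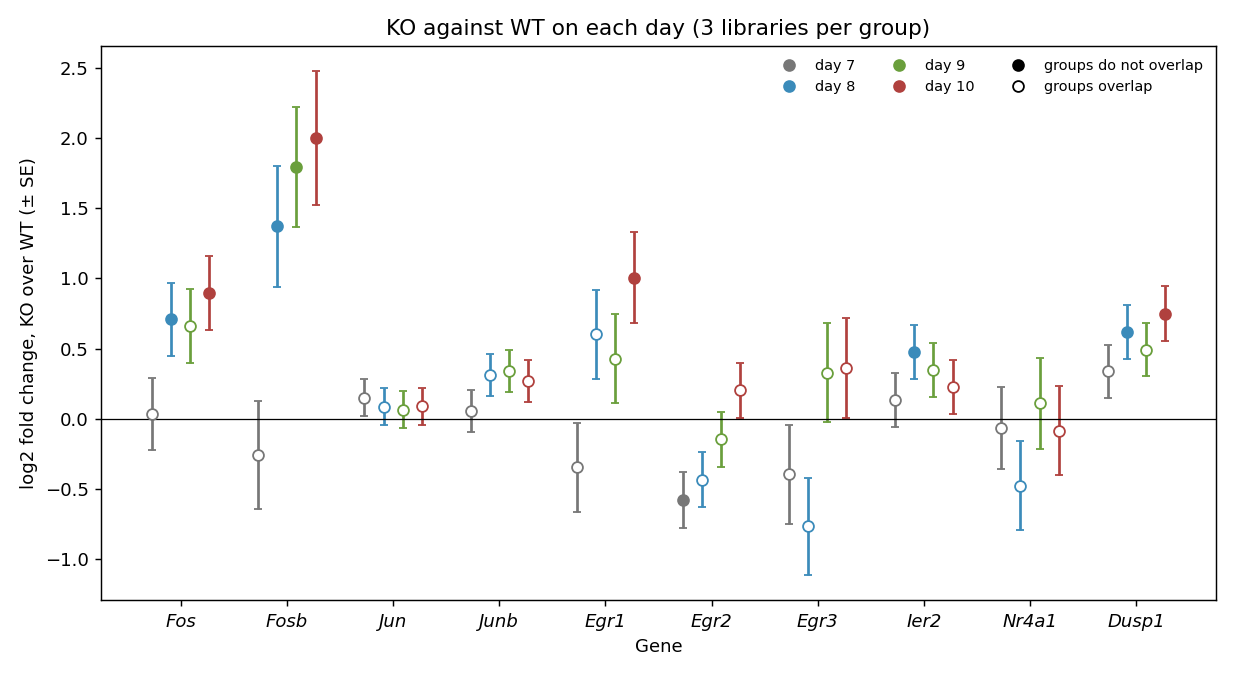
Log2 fold change of KO over WT (vertical axis, ± SE) for each gene, with 1 colour per day and filled points where the 3 KO and 3 WT libraries do not overlap. Fosb, Fos, Egr1 and Dusp1 lie above 0 on days 8, 9 and 10, Egr2 and Egr3 lie below 0 on days 7 and 8, and Jun stays within 0.15 of 0 on each day.

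The libraries of 1 KO group did not stand together. Within-group SDs of log2 CPM had a median of 0.523 over the 10 genes in KO on day 9, against 0.156 over all genes, and of 0.149 and 0.125 in WT on that day. KO library 64 was the highest of its group in 9 of the 10 genes on day 9 and in 9 of 10 on day 10, while on days 7 and 8 it was the highest in 1. That label did not mark 1 animal, since its Ddx3y level was 63.2 CPM on day 9 and 0 on day 10. In WT on day 7, library 66 was the highest in all 10. On day 9, KO library 64 had the highest summed macrophage markers of its group, 4833 CPM against 3575 and 4094, and the lowest dendritic cell markers, 3491 against 6584 and 4739. On day 10 the order was the other way, with macrophage markers of 3220 CPM against 4639 and 3664 and dendritic cell markers of 8140 against 4788 and 6266. Of the 11 macrophage markers 10 had a group mean above 1 CPM in each of these groups, as had all 11 dendritic cell markers, and their part in the results was not tested.

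The contrast of day 10 with day 7, through which Fosb was chosen, is given as a description. All 10 genes were lower on day 10 in WT without overlap, as were 26.7% of all genes, and 9 of them, all but Jun, were past the adjusted threshold, where 18.1% of all genes were called lower. In KO 7 of the 10 were called lower, where 17.1% of all genes were, and the other 3 were Egr2, Egr3 and Ier2. Without Fosb, whose choice used these values, 8 of 9 genes were called lower in WT and 6 of 9 in KO. These counts describe the contrast and test nothing. With mouse number as a replicate block Jun in KO was not called (adjusted p = 0.0603). With the block after KO numbers were exchanged on days 8 and 10, all 10 were called in WT, Jun included, and 8 in KO, Jun and Ier2 included, where 44.7% and 44.6% of all genes were called in either direction, against 37% and 36.8% without a block. The log2 change of Fosb was -4.77 ± 0.49 in WT and -2.52 ± 0.42 in KO, which ranked 9 and 83 among 14535 genes from the largest fall. The values in WT and KO were -2.50 and -1.64 for Fos, -2.46 and -1.11 for Egr1, -2.18 and -1.77 for Dusp1, and -2.03 and -2.05 for Nr4a1. They were -0.97 and -0.20 for Egr3, -0.78 and -0.57 for Junb, -0.78 and 0.00 for Egr2, -0.52 and -0.43 for Ier2, and -0.30 and -0.36 for Jun. The genes are given here in their WT order. In KO, Nr4a1 came next after Fosb, followed by Dusp1, Fos and Egr1.
On the TPM scale the median over all genes was itself 0.21 higher on day 10 in WT and 0.25 in KO, and relative to it all 10 genes were lower in WT and 9 in KO, where Egr2 stood 0.05 above it. On that scale, before the shift was taken off, Egr2 and Egr3 were higher on day 10 in KO, by 0.30 and 0.07.

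**Figure D4:**
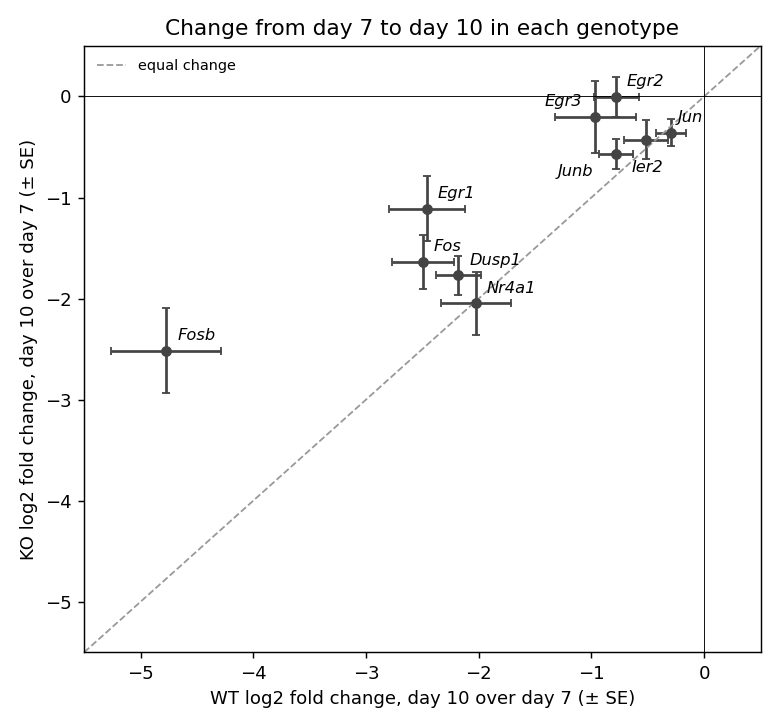
Log2 fold change of day 10 over day 7 in KO (vertical axis) against that in WT (horizontal axis), with SE bars and a dashed line of equal change. Fosb lies farthest to the left, at -4.77 in WT and -2.52 in KO, and Nr4a1 lies on the line.

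The genotype difference in the change from day 7 to day 10, tested as an interaction for the 9 genes other than Fosb, called 0 by edgeR, where 0.0619% of all genes were called. At an unadjusted p of 0.05, 3 of the 9 had a smaller fall in KO: Egr1 with 1.35 ± 0.45 (adjusted p = 0.583), Fos with 0.86 ± 0.37 (0.717) and Egr2 with 0.78 ± 0.28 (0.629), where 3.35% of all genes passed in that direction. DESeq2 also called 0 of the 9, where it called 0.255% of all genes. For the change from day 7 to day 8 the interaction called 0 of 9, where 0.0275% of all genes were called, and 1 of the 9, Egr1, had an unadjusted p under 0.05 (0.95 ± 0.45), where 2.77% of all genes passed in that direction.

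In the single day steps, the first and the last are descriptions, since they share libraries with the choice of Fosb. Between days 7 and 8, Fosb, Fos, Nr4a1 and Dusp1 were called lower in both genotypes, where 22% of all genes were in WT and 20.9% in KO, and Egr2 was called higher in both, where 21.5% and 21.1% were. The Fosb change in this step was -3.32 ± 0.44 in WT and -1.70 ± 0.40 in KO. Fos in KO lost its call in this step without any 1 of the numbers 63, 65, 66, 67 and 68, and in limma on TPM. Egr2 lost its call in WT without mouse 63 or 66 and in KO without number 67. Egr1 in WT, at -0.79 with an adjusted p of 0.0513, was called lower in 9 of 17 alternative fits: without the filter, with a mean count of 50, without library 64, 67 or 68, without KO library 64 of day 9 or of day 10, with the compared groups alone and with the exchanged block.

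The step from day 8 to day 9 lies outside the choice of Fosb. There edgeR called 0 of the 10 in either genotype, where 5.4% of all genes were called in WT and 2.33% in KO. At an unadjusted p of 0.05, Egr3, Junb and Egr2 were lower in WT, where 10.2% of all genes were, and Junb in KO, where 8.47% were. DESeq2 called Egr3 in WT and none of the 10 in KO, where it called 9.12% and 5.97% of all genes. With mouse number as a replicate block Egr3 was called in WT, where 5.54% of all genes were. The exchanged block called Junb and Egr3 in WT and Junb in KO, where 16.6% and 13.2% of all genes were called. Without KO library 64 of day 9, Fos (-0.73, adjusted p = 0.0194) and Dusp1 (-0.56, adjusted p = 0.0446) were called lower in KO, where 6.02% of all genes were then called.

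Between days 9 and 10, Fos, Egr1, Egr2 and Dusp1 were called lower in WT, where 2.42% of all genes were, and 0 of the 10 were called in KO, where 0.0963% were. These WT calls rested on all 3 mice, as did those of other genes: Egr2 alone was called without mouse 65 and none of the 10 without 63 or without 66, where the share of all genes called in either direction went from 3.6% to 0.196%, 0% and 1.23%. Fos was not called with the replicate block, where 2.92% of all genes were. With the exchanged block Fos kept its call, and Fosb and Ier2 were called as well, where 13% were. With the compared groups alone Fosb and Egr3 were called as well, where 6.26% were. Fosb was also called without the filter on low counts, where 1.4% were, and in DESeq2, where 5.63% were. It was called too without the libraries labelled 64 (3.83%) and without KO library 64 of day 9 (3.82%). In KO 6 of the 10 were lower at an unadjusted p of 0.05, where 6.01% of all genes were. The KO count of 0 depended on the fit. DESeq2 called 1 gene, Dusp1, where it called 1.42% of all genes, and edgeR without the filter on low counts called Fosb, Egr1 and Dusp1, where it called 0.171%. Without the libraries labelled 67 edgeR called Fos, Egr2 and Dusp1, where 14.2% of all genes were called. With the replicate block after KO numbers were exchanged so that the Ddx3y library kept 1 number (a fit added once the data were seen), it called 5 genes, Fosb, Egr1, Egr2, Ier2 and Dusp1, where 5.95% were called.

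Per length, Junb was the most abundant of the 10 in every group, from 216 ± 13.8 TPM in WT on day 10 to 410 ± 63.5 in KO on day 8. The order of the others moved with the day. Fos stood next to Junb in WT on day 7, at 285 TPM. By day 10 it was at 61.6 ± 9.16, behind Jun at 132 ± 16.4, Ier2 at 103 ± 10.1 and Egr2 at 84.9 ± 23.1. In KO on day 10 Fos was at 121 ± 20.6 TPM, between Ier2 at 129 ± 30.1 and Egr2 at 104 ± 18.7, and the ranges of these 3 genes overlapped. Fosb stood at 17.05 TPM in WT on day 7 and 0.753 ± 0.146 on day 10, and at 14.9 ± 2.30 and 3.27 ± 1.86 in KO. Across the 8 groups, the Fosb order in CPM was WT day 7, KO day 7, KO day 9, KO day 8, KO day 10, WT day 9, WT day 8 and WT day 10. Neighbours in that order overlapped except KO day 7 with KO day 9 and WT day 8 with WT day 10.

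Over the 24 libraries, the gene of the list most like Fosb in log2 CPM was Fos (Pearson r = 0.93), then Dusp1 (0.91), Egr1 (0.80), Junb (0.76), Nr4a1 (0.73), Ier2 (0.61), Jun (0.59), Egr3 (0.25) and Egr2 (0.10). Among 10522 other expressed genes, those most like Fosb were Thbs1, which encodes the matrix protein thrombospondin 1 (0.893), Osgin1 (0.892), Pdlim4 (0.874), Dusp6, an ERK phosphatase (0.861), and Cd14, the co-receptor for lipopolysaccharide (0.859). Those most like the mean of the 10 genes were Zfp36, which encodes an mRNA-destabilising protein (0.903), Trib1 (0.896), Trim8 (0.885), Dusp6 (0.884) and the chemokine gene Cxcl2 (0.855). These correlations describe libraries that share 4 days of culture, and days and libraries of 1 day are not independent points.
The mean of Cd14 in WT was 217 CPM on day 7 and 42.2 on day 10, and in KO 198 and 48.3. For Dusp6 the same means were 124 and 58.9 in WT, and 116 and 75.9 in KO.

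The other genes of the system were read from lists. Of 15 further AP-1 family genes, 2 were called between the genotypes on day 7 by edgeR, where 1.45% of all genes were: Batf, which pairs with Jun proteins in lymphoid and dendritic cells, was higher in KO (14.8 ± 1.01 against 11.3 ± 0.969 CPM, adjusted p = 0.0434), and Maff, a small Maf protein, was lower (8.59 ± 0.676 against 11.98 ± 0.632, adjusted p = 0.0354). On days 8, 9 and 10 none of the 15 was called. At an unadjusted p of 0.05, 0, 2 and 3 were higher on these days, against 3.38%, 4.59% and 3.74% of all genes, and 1, 1 and 0 lower, against 2.52%, 3.56% and 3.56%. Between days 7 and 10, 2 of the 15 were called higher and 7 lower in WT, and 3 higher and 5 lower in KO. Of all genes, 18.9% were called higher and 18.1% lower in WT in that contrast, and 19.7% and 17.1% in KO. Atf3, a stress-induced partner of Jun, had day 7 and day 10 means of 422 ± 44.5 and 164 ± 32.6 CPM in WT, and of 348 ± 44.8 and 133 ± 57.9 in KO.

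Of 41 further immediate early genes 40 passed the filter, and 2 of these were called between the genotypes on day 7, against 1.45% of all genes, both higher in KO: Gadd45b, a stress response gene (29.8 ± 6.66 against 18.5 ± 0.430 CPM, adjusted p = 0.0455), and Zfp36l2, which encodes an mRNA-destabilising protein (449 ± 61.6 against 339 ± 24.04, adjusted p = 0.0354). None of the 40 was called on days 8, 9 and 10. At an unadjusted p of 0.05, 6, 7 and 5 were higher on these days, against 3.38%, 4.59% and 3.74% of all genes, and 2, 1 and 1 lower, against 2.52%, 3.56% and 3.56%. The median log2 fold change of KO over WT was 0.13 on day 7 and 0.02, 0.01 and 0.04 on days 8, 9 and 10. From day 8 to day 9 the inhibitors of NF-kB signalling Nfkbia and Tnfaip3 and the transcription factor gene Klf10 fell in both genotypes, with Nfkbia at 164 ± 15.5 and then 93.3 ± 6.30 CPM in WT, and 187 ± 9.75 and then 114 ± 7.96 in KO, with adjusted p-values of 0.000707 and 0.00305. Over the list, 6 of 40 genes fell in WT in that step, where 2.34% of all genes did, and 3 in KO, where 1.02% did, and none rose.
Between days 7 and 10, 9 of the 40 were called higher and 14 lower in WT, and 6 higher and 16 lower in KO, where 18.9% of all genes were called higher and 18.1% lower in WT, and 19.7% and 17.1% in KO. Not all of the list moved the way Fosb did. Nr4a3, the close relative of Nr4a1, was higher on day 10, at 7.64 ± 1.54 and then 31.1 ± 6.96 CPM in WT, and 11.6 ± 5.33 and then 50.0 ± 24.5 in KO. The kinase gene Sgk1 was lower, at 906 ± 33.1 and then 321 ± 36.9 in WT, and 734 ± 60.1 and then 240 ± 47.3 in KO. Myc was at 23.5 ± 2.12 CPM on day 7 and 43.7 ± 3.32 on day 10 in WT, and at 20.7 ± 0.661 and 53.2 ± 6.18 in KO.

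Of 25 upstream kinases and factors, 1 was called between the genotypes on day 7, against 1.45% of all genes: Mapk14, the p38-alpha kinase, was higher in KO (198 ± 11.6 against 167 ± 5.01 CPM, adjusted p = 0.0475). Between days 7 and 8, Mapk3, which encodes ERK1, was lower, at 457 ± 16.02 and then 271 ± 8.18 CPM in WT, and 427 ± 31.6 and then 257 ± 37.0 in KO. Mef2c, a MADS-box factor, was at 28.0 ± 1.31 and then 13.6 ± 1.40 in WT. Over the list, 6 of 25 were called higher and 6 lower in each genotype in that step, near the shares of all genes, which were 21.5% and 22% in WT and 21.1% and 20.9% in KO. Of 18 cytoskeletal targets of serum response factor 15 passed the filter, and 1 was called on day 7, against the same 1.45%: Tpm4, a tropomyosin gene, was lower in KO (263 ± 18.5 against 318 ± 11.9 CPM, adjusted p = 0.0365). In the step between days 7 and 8, 8 of the 15 were called higher and 0 lower in each genotype, against 21.5% and 22% of all genes in WT and 21.1% and 20.9% in KO, among them Flna, which encodes filamin A, from 1183 ± 40.9 to 1833 ± 47.8 CPM in WT. Of 13 heat shock genes, which respond to handling stress, 12 passed the filter and 0 were called between the genotypes on any day. At an unadjusted p of 0.05, 2 of them were lower on day 7, against 7.66% of all genes, and 0 on days 8 to 10, against 2.52%, 3.56% and 3.56%. In the first step 10 of the 12 were called higher in WT and 11 in KO, against the same 21.5% and 21.1%, with 1 lower in each, and Hspd1, a mitochondrial chaperone gene, went from 178 ± 6.72 to 287 ± 6.31 CPM in WT.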

How the data were processed

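RNA was read as stranded poly(A) libraries from 24 cultures. Raw counts per gene and TPM were deposited by the authors. Per the submitters' processing notes, FastQC 0.11.9, STAR 2.6.1 and DESeq2 1.22.2 were used with mm10. A pair of library kits is named per the labels' protocols, with no kit tied to a library, and the counter and annotation release are not given in the sources used here. The 10 genes and the gene lists were chosen with earlier results of these data known.

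Counts of the 14535 genes kept by filterByExpr were scaled by TMM factors and tested in edgeR 4.0.16 (R 4.3.3) with the quasi-likelihood test, 8 group means in 1 fit, 2-sided, with Benjamini-Hochberg adjustment over all genes and a threshold of 0.05. CPM values are TMM-scaled. Errors are SE for log2 fold changes and SD (n = 3) for levels. All 10 genes were named, and from each list up to 3 called genes with the largest change per comparison were eligible. The genes most like Fosb were ranked by Pearson correlation among genes with an average log2 CPM above 1. The fits were tested on simulated data, and the outcome of that is not given here. Gene positions came from GENCODE M21, where 55394 of 55487 identifiers matched without regard to version.

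Deviations of libraries with 1 mouse number had correlations of -0.0369 to 0.493 in WT (mean 0.272, 16 of 18 pairs over 0.1). In KO they ran from -0.780 to 0.779 (mean 0.0182, 9 of 18 over 0.1). The labels tie a number to a mouse, which Ddx3y went against in KO, so the fit with the mouse block is given as an alternative. Libraries of a group differed by more than sampling noise. The p-values of the main fit rest on the spread between libraries within the 8 groups, pooled, and take no account of mouse number. Alternatives were DESeq2 1.42.0, its size factors, no filter or a mean count of 50, and the compared groups alone. Others were limma 3.58.1 on log2(TPM + 1), Xist as covariate, the mouse block and each mouse number left out.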

Additional observations from a re-analysis of the deposited data

How the results depend on the processing

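The count of the 10 genes past the threshold mostly kept to within 1.5 times its value over the 17 alternatives. The step from day 8 to day 9 in WT was the exception, where the count of 0 changed in most of them. Of the 17 alternatives, 3 were chosen after seeing the data (the exchanged block and the fits without 1 KO library). The exchange followed Ddx3y, which places 1 KO library a day and leaves the numbers of the others unsettled. The count between the genotypes on day 7, 0 genes, became 1 with only the groups compared (Egr2), where the share of all genes called went from 1.45% to 2.36%. That share was 0.272%, 0.142% and 0.0743% without mouse 63, 65 or 66. Without the libraries labelled 64, 67 or 68 it was 2.4%, 0.675% and 0.93%. The day 7 calls of genes from the further lists are given for the fit of all libraries only. On day 8 the count ranged from 0 to 2 over the fits that leave out 1 mouse number, which in KO was not 1 animal. The 2 were Fos and Dusp1 without replicate 64, where 0.0205% of all genes were called. On day 9 the count became 1 without the filter on low counts and 1 in DESeq2, Fosb in both. On day 10, without Fosb, it became 2 without the filter (Fos and Dusp1) and 1 in DESeq2 (Dusp1). It ranged from 0 to 1 over left-out numbers (Fos without 64, where 0.0273% of all genes were called). It was 1 (Fos) without KO library 64 of day 9 (0.0203%). Dropping the filter raised the prior degrees of freedom of the fit from 4.16 to 24.7. Over all genes the genotype calls of days 9 and 10 went from 1 and 2 to 90 and 43 without the filter, and DESeq2 also called 90 and 43.

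From day 8 to day 9 in WT the count of 0 became 1 without the filter and 1 in DESeq2. It became 3 with only the groups compared (Egr3, Egr2 and Junb) and 1 with the replicate block. It became 2 with the block after KO numbers were exchanged on days 8 and 10, and 0 to 1 without single mouse numbers or KO libraries. The share of all genes called, 5.4% at first, was 2.99%, 9.12%, 16.6%, 5.54% and 16.6% in the first 5 of these fits. In KO the count became 1 with the exchanged block (Junb), where the share of all genes rose from 2.33% to 13.2%. It was 0 to 2 without single mouse numbers or libraries (Fos and Dusp1 without 64). From day 7 to day 10 the count ranged over left-out mouse numbers from 6 to 10 in WT and from 4 to 7 in KO. It includes Fosb and is a description. The share of all genes moved too, in WT from 37% to 22% without 66 (6 genes) and 40.3% without 67 (10 genes), and in KO from 36.8% to 24.8% without 68 (4 genes). Interactions kept 0 of 9 genes in all 17. The replicate block took Jun in KO out of the day 10 against day 7 calls (adjusted p = 0.0603) and Fos out of the day 10 against day 9 calls in WT. The exchanged block took the day 10 against day 9 count in KO from 0 to 5. Of 1360 fold changes, 46 changed sign, and 0 of these were called in either fit. Precision was limited by 3 libraries a group, with SDs of log2 CPM up to 0.860 (KO on day 9). The cause of these shifts was not tested.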
